A study of Mus musculus with 24 samples.

Results

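Fatty acid oxidation and its nuclear receptor PPAR alpha were followed through 34 genes in mouse kidney by bulk RNA sequencing. The genes were taken by symbol: the receptor and its coactivator, the enzymes and carriers that activate and oxidise fatty acids in mitochondria, 4 enzymes of peroxisomal oxidation and 9 further PPAR target genes. All 34 were among the 54532 gene identifiers of the count files, and all 34 passed the filter on low counts that left 17286 genes for testing. The kidneys came from mice with intact Lrp2 (+/+, wild type) or without Lrp2 in proximal tubule cells (-/-, knockout), described as littermates. Lrp2 encodes megalin, the receptor by which proximal tubule cells take filtered proteins back from the urine. Both genotypes were kept on Western diet, a feed rich in fat, for either 2 weeks or 12 weeks, with 6 libraries in each of the 4 groups. Every group was on this diet, so a genotype difference here is a difference under Western diet. Neither the Cre driver nor the age or sex of the mice is given in these sources. The labels add the term SM22 to the mouse name without explaining it, and whether every library is from its own mouse is not said there. The p-values therefore measure the spread between libraries, which may be technical.

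Fatty acids are first joined to coenzyme A, then carried into mitochondria as carnitine esters, and there shortened step by step in the beta-oxidation spiral, whose electrons reach the respiratory chain through the electron transfer flavoprotein. Peroxisomes shorten very long, branched and dicarboxylic fatty acids before mitochondria finish them. PPAR alpha binds fatty acids and, paired with a retinoid X receptor, switches on many genes of both routes, helped by the coactivator PGC-1 alpha. The proximal tubule, which makes up most of the kidney cortex, relies on this oxidation for the energy of reabsorption.

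In the knockout most genes of the oxidation pathway were lower at both durations. A few PPAR targets outside the spiral were higher, a smaller share of the 34 genes than rose among all tested genes. At 2 weeks 21 of the 34 genes fell, 2 rose and 11 did not pass the test. Over all tested genes 13.4% fell and 18.2% rose in that comparison, 31.6% in all. The median log2 fold change of the 34 was -0.34, against -0.01 over all tested genes. At 12 weeks 20 fell, 4 rose and 10 did not pass, against 17.7% of all genes falling, 20.7% rising and 38.5% changing in either direction. The median was then -0.25, against 0 over all tested genes. In 13 of the falling genes no knockout library at 2 weeks overlapped the wild-type libraries (6.32% of all genes), and in 5 at 12 weeks (8.3%). The rising genes had no overlap in 1 case at 2 weeks and 3 cases at 12 weeks (10.3% and 10.1% of all genes). In bulk kidney RNA, fewer cells of a type and less RNA per cell cannot be told apart.

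**Figure D1:**
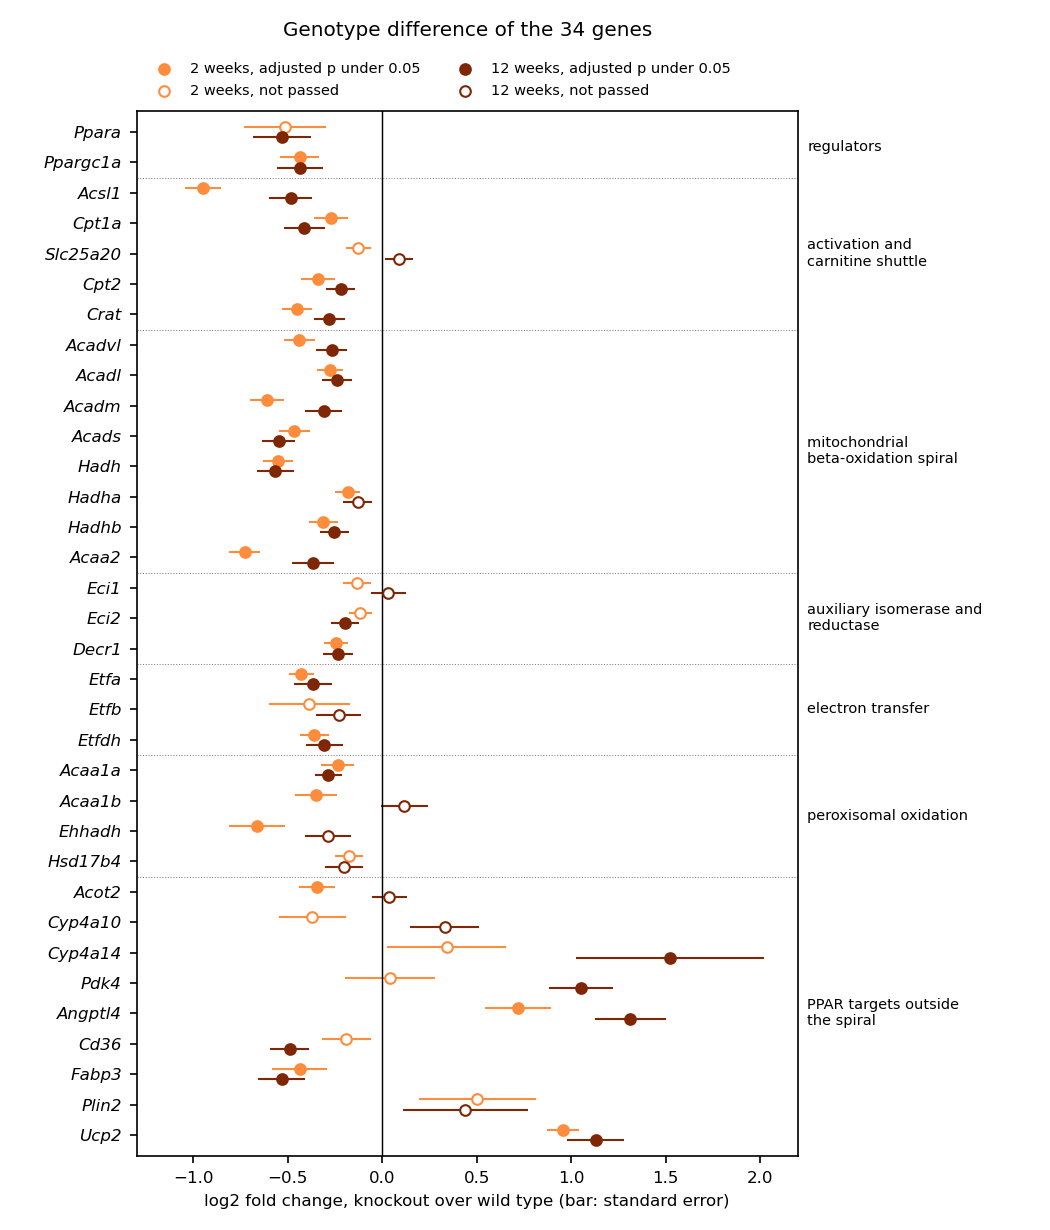
Log2 fold change of each of the 34 genes, knockout over wild type, on the horizontal axis, with its standard error as a bar and 6 libraries in each group. Filled points passed an adjusted p of 0.05 and open points did not; the mitochondrial genes lie mostly left of 0, while Cyp4a14, Pdk4, Angptl4 and Ucp2 lie to the right at 12 weeks.

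The libraries held 15603580 to 34055860 counts in wild type and 16312621 to 25184468 in knockout at 2 weeks, and 11351799 to 14534214 and 11327983 to 15236159 at 12 weeks. Levels are given as CPM, counts normalised to depth and scaled for library composition. Lrp2 itself stood at 17.6% of wild type in knockout at 2 weeks and at 17.2% at 12 weeks, with no overlap of the groups. Markers of several cell types moved with genotype, not all in the same direction. Of 12 general proximal tubule markers 9 fell at 2 weeks and 10 at 12 weeks (median log2 fold change -0.53 and -0.55). Their summed level in the median library was 16630 CPM in wild type and 11317 in knockout at 2 weeks, and 17047 and 11494 at 12 weeks. Of 6 thick ascending limb markers 4 fell at 2 weeks, while 1 fell and 1 rose at 12 weeks. Of 5 podocyte markers 1 fell at 2 weeks and 3 rose at 12 weeks. Of 6 endothelial markers 2 fell at each duration. Markers of the collecting duct and distal tubule moved too. Of 7 collecting duct markers 4 fell at 2 weeks and 5 at 12 weeks, with summed levels of 383 to 489 CPM in wild type and 248 to 352 in knockout at 2 weeks, and 339 to 502 and 170 to 306 at 12 weeks. Of 6 distal and connecting tubule markers 3 fell and 1 rose at 2 weeks and 2 fell and 1 rose at 12 weeks, with median sums of 2972 and 2076 CPM at 2 weeks and 1411 and 1034 at 12 weeks. All 8 macrophage markers rose at both durations, with summed levels of 134 to 186 CPM in wild type and 386 to 944 in knockout at 2 weeks, and 134 to 354 and 567 to 1258 at 12 weeks. The part of these cell types in the results below was not tested. Muscle markers summed to at most 2.23 CPM and adrenal cortex markers to at most 0.460 CPM in any library, with the adrenal enzymes Cyp11b1 and Cyp11b2 at 0 throughout.

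The receptor and its coactivator were both lower in the knockout, the coactivator at both durations. Ppara, which encodes PPAR alpha, ranged from 38.5 through a median of 58.2 to 65.2 CPM in wild type at 2 weeks and from 18.6 through 37.3 to 57.9 CPM in knockout. The groups overlapped, with knockout libraries 2 and 6 inside the wild-type range. The difference did not pass there (log2 fold change -0.51, SE 0.22, edgeR adjusted p = 0.097; SEs follow the ± sign below). Leaving out knockout library 6, the highest at 57.9 CPM, gave -0.66 with an edgeR adjusted p of 0.020, and DESeq2 on all 12 libraries gave -0.53 with an adjusted p of 0.022. At 12 weeks Ppara ranged from 64.0 through 66.4 to 95.7 CPM in wild type and from 38.0 through 48.0 to 65.5 CPM in knockout. It fell to 67.9% of wild type (log2 -0.53 ± 0.15, edgeR adjusted p = 0.015), with knockout library 1 inside the wild-type range. Ppargc1a, the gene of PGC-1 alpha, ranged from 85.9 through 108 to 126 CPM in wild type and from 57.7 through 81.8 to 90.1 CPM in knockout at 2 weeks. The 12-week libraries ranged from 71.5 through 75.5 to 100 CPM and from 48.5 through 58.0 to 77.6 CPM. It fell to 72.6% of wild type at each duration (log2 -0.44 ± 0.10 and -0.43 ± 0.12, edgeR adjusted p = 0.0032 and 0.011). The groups overlapped at their edges both times.

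**Figure D2:**
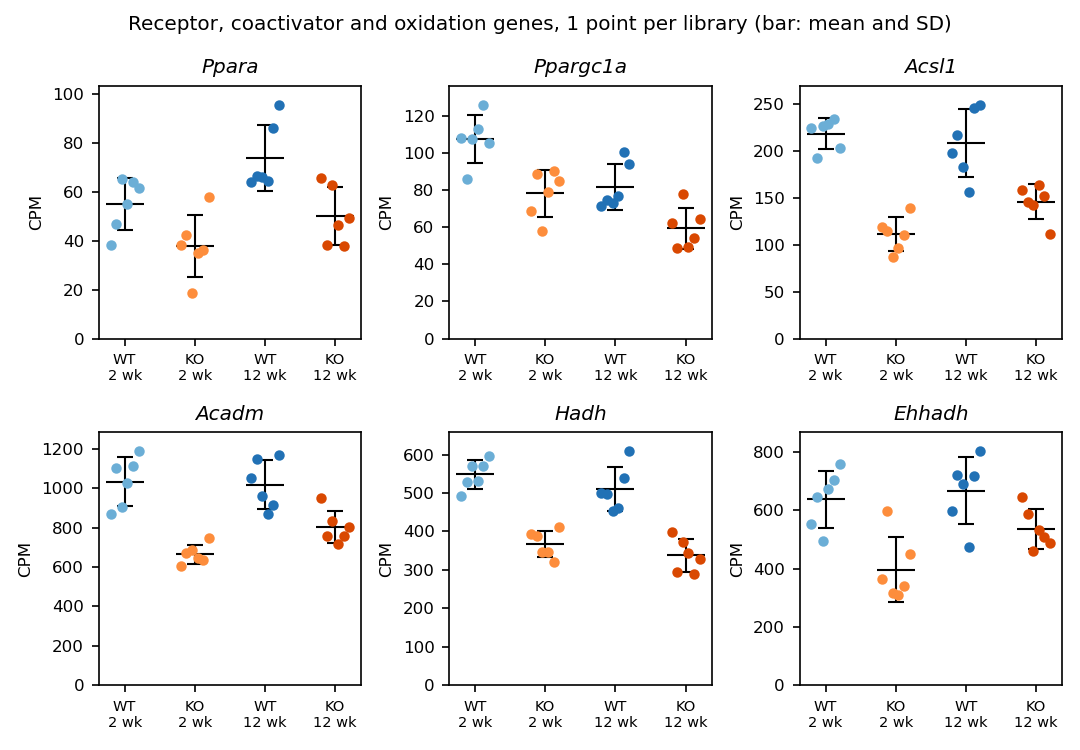
CPM of 6 genes in every library (points), with the mean and SD of the 6 libraries of each group as bars and the 4 groups along the horizontal axis. Acsl1, Acadm and Hadh show no overlap of genotypes at 2 weeks, while Ppara, Ppargc1a and Ehhadh overlap at both durations.

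Activation and the carnitine shuttle were lower in 4 of 5 genes at each duration. Acsl1, the acyl-CoA synthetase that commits long-chain fatty acids to metabolism, had the most negative log2 fold change of the 34 genes at 2 weeks. It ranged from 193 through 225 to 234 CPM in wild type and from 87.4 through 113 to 140 CPM in knockout at 2 weeks, with a gap between the groups. It fell to 51.0% of wild type (log2 -0.95 ± 0.10, edgeR adjusted p = 6.0e-07). Its 12-week libraries ranged from 157 through 208 to 249 CPM and from 112 through 149 to 164 CPM, and the groups overlapped by a narrow margin. The level was then 70.03% of wild type (log2 -0.48 ± 0.12, edgeR adjusted p = 0.0040). Crat, the carnitine acetyltransferase that buffers short acyl groups, showed no overlap at either duration. Its libraries ranged from 117 through 135 to 148 CPM against 79.9 through 97.4 to 109 CPM at 2 weeks, and from 124 through 132 to 161 CPM against 94.9 through 110 to 122 CPM at 12 weeks. Crat fell to 71.8% and 80.7% of wild type (edgeR adjusted p = 0.00028 and 0.013).

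The 2 carnitine palmitoyltransferases fell less steeply than Acsl1 in their estimates, a difference that was not tested. Cpt2, on the inner mitochondrial membrane, ranged from 121 through 137 to 161 CPM in wild type and from 95.4 through 103 to 140 CPM in knockout at 2 weeks, and fell to 77.6% (log2 -0.34 ± 0.09, edgeR adjusted p = 0.0071). Its 12-week range was 121 through 137 to 156 CPM against 105 through 113 to 136 CPM, and it stood at 84.1% (log2 -0.22 ± 0.08, edgeR adjusted p = 0.033). At each duration 1 knockout library reached into the wild-type range, library 2 and library 1 respectively. Cpt1a, the outer-membrane enzyme that sets the rate of entry, fell to 81.4% and 73.6% of wild type (log2 -0.27 ± 0.09 and -0.41 ± 0.11, edgeR adjusted p = 0.030 and 0.0079). Slc25a20, the carrier between these enzymes, did not pass at either duration (log2 -0.13 ± 0.07 and 0.09 ± 0.07). The Cpt1a promoter is shown because it holds 1 match, in capitals, to the nuclear receptor half-site AGGTCA on either strand. It spans 250 bases before to 50 after the RefSeq start on the plus strand of build GRCm38.p6 (chr19:3323051-3323350), and the match begins 94 bases before the start on the opposite strand.
Cpt1a: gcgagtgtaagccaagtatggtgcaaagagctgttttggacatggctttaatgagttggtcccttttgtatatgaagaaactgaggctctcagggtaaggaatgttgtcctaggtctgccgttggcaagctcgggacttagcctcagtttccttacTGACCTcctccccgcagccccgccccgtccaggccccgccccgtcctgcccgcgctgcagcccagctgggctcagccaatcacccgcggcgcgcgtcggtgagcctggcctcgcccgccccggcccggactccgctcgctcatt

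All 8 genes of the mitochondrial spiral fell at 2 weeks, and 7 of them at 12 weeks. The spiral starts with acyl-CoA dehydrogenases graded by chain length. Acadm, the medium-chain enzyme, carried the most RNA per length of the 34 genes. It ranged from 872 through 1064 to 1189 CPM in wild type and from 606 through 659 to 748 CPM in knockout at 2 weeks, without overlap, and fell to 64.3% (log2 -0.61 ± 0.09, edgeR adjusted p = 4.7e-05). At 12 weeks its libraries ranged from 868 through 1007 to 1170 CPM against 720 through 781 to 952 CPM. The level was 79.0% of wild type (log2 -0.31 ± 0.10, edgeR adjusted p = 0.021), and knockout library 1 lay within the wild-type range. The very long-chain enzyme Acadvl fell to 72.4% and 81.4%, the long-chain enzyme Acadl to 81.0% and 83.0%, and the short-chain enzyme Acads to 71.1% and 67.1%. Acads showed no overlap at either duration, from 200 through 232 to 238 CPM against 126 through 165 to 177 CPM at 2 weeks and from 193 through 230 to 238 CPM against 130 through 145 to 180 CPM at 12 weeks. The Acadm promoter (chr3:153944594-153944893, minus strand, GRCm38.p6, RefSeq), shown as that of the gene of highest level, holds 1 half-site match in capitals, beginning 249 bases before the start.
Acadm: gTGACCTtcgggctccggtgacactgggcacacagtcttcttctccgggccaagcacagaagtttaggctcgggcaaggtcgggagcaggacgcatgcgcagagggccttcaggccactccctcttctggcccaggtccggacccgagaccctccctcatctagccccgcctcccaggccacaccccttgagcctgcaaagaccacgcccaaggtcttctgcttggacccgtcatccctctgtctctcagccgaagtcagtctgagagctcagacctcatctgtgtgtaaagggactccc

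The later steps of the spiral showed the same direction with unequal size. Hadh, the 3-hydroxyacyl-CoA dehydrogenase for shorter chains, ranged from 493 through 552 to 596 CPM in wild type and from 321 through 367 to 411 CPM in knockout at 2 weeks. After 12 weeks Hadh ranged from 453 through 498 to 609 CPM and from 290 through 335 to 398 CPM. Neither duration showed any overlap, and Hadh fell to 67.0% and 66.2% of wild type (log2 -0.55 ± 0.08 and -0.56 ± 0.10, edgeR adjusted p = 3.3e-05 and 0.00050). Acaa2, the thiolase that releases acetyl-CoA, ranged from 147 through 163 to 189 CPM against 80.7 through 97.0 to 110 CPM at 2 weeks, without overlap. At 12 weeks the ranges, from 129 through 175 to 217 CPM and from 105 through 137 to 151 CPM, overlapped through wild-type library 4, and the level was 76.02% of wild type (log2 -0.37 ± 0.11, edgeR adjusted p = 0.016).

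The trifunctional protein, which carries the last 3 steps for long chains, includes the gene with the mildest estimate of the spiral at each duration, Hadha, which encodes the alpha subunit. Hadha ranged from 185 through 203 to 225 CPM in wild type and from 171 through 174 to 183 CPM in knockout at 2 weeks, a small difference with no overlap. It fell to 86.5% (log2 -0.18 ± 0.07, edgeR adjusted p = 0.042) and did not pass at 12 weeks (log2 -0.13 ± 0.07, edgeR adjusted p = 0.19). The beta subunit gene Hadhb fell to 79.1% and 82.2% (log2 -0.31 ± 0.08 and -0.25 ± 0.08, edgeR adjusted p = 0.0044 and 0.016). The subunit genes lie head to head on chromosome 5, and both were lower in knockout at 2 weeks, so the sequence between them is shown. In the window chr5:30155003-30155302 (plus strand, GRCm38.p6, RefSeq), the 85 bases between the annotated starts of Hadha, on the minus strand, and Hadhb, on the plus strand, are in capitals. The window holds no half-site match.
Hadha and Hadhb: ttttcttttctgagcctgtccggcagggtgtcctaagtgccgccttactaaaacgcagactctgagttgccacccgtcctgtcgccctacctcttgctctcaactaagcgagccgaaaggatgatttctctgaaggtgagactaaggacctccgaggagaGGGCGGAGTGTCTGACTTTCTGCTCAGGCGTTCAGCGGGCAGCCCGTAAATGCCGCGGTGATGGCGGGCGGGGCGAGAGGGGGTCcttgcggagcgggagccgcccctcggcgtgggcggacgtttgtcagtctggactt

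The auxiliary enzymes and the electron transfer genes changed less evenly. Decr1, the reductase needed for fatty acids with double bonds, ranged from 202 through 218 to 237 CPM in wild type and from 171 through 179 to 189 CPM in knockout at 2 weeks, without overlap. Its libraries at 12 weeks ranged from 220 through 235 to 256 CPM against 173 through 192 to 237 CPM, with overlap through knockout library 1. Decr1 fell to 82.8% and 83.4% of wild type (log2 -0.25 ± 0.06 and -0.23 ± 0.08, edgeR adjusted p = 0.0069 and 0.031). Its partner Eci2, an isomerase found in peroxisomes as well as mitochondria, ranged from 96.7 through 103 to 106 CPM against 86.6 through 91.7 to 102 CPM at 2 weeks and did not pass (log2 -0.12 ± 0.06). The 12-week range was 121 through 127 to 139 CPM against 98.5 through 107 to 129 CPM and fell to 85.5% (log2 -0.20 ± 0.07, edgeR adjusted p = 0.043). The groups overlapped both times. The mitochondrial isomerase Eci1 did not pass at either duration (log2 -0.13 ± 0.07 and 0.03 ± 0.09).

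Electrons leave the dehydrogenases through a flavoprotein of an alpha and a beta subunit, and its oxidoreductase passes them to ubiquinone. Etfa, the alpha subunit gene, ranged from 339 through 364 to 393 CPM in wild type and from 258 through 263 to 281 CPM in knockout at 2 weeks. Etfdh, the oxidoreductase gene, ranged from 208 through 245 to 260 CPM against 163 through 182 to 195 CPM. Neither gene overlapped there, and they fell to 73.0% and 76.6% of wild type (edgeR adjusted p = 8.2e-05 and 0.0014). At 12 weeks Etfa ranged from 370 through 433 to 468 CPM against 265 through 323 to 404 CPM, and Etfdh from 223 through 270 to 294 CPM against 178 through 205 to 260 CPM. Both overlapped, Etfa through knockout library 1 and Etfdh through knockout libraries 1 and 3, with levels of 76.02% and 79.2% (edgeR adjusted p = 0.010 and 0.022). Etfb, the beta subunit gene, did not pass (log2 -0.38 ± 0.21 and -0.23 ± 0.12, edgeR adjusted p = 0.20 and 0.14). Of its exon bases 53.0% overlap the gene Gm45233 on the same strand, so reads of the pair could not be separated with certainty. Over the 19 mitochondrial genes from activation to electron transfer, 15 fell and none rose at each duration, with median log2 fold changes of -0.36 and -0.27.

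**Figure D3:**
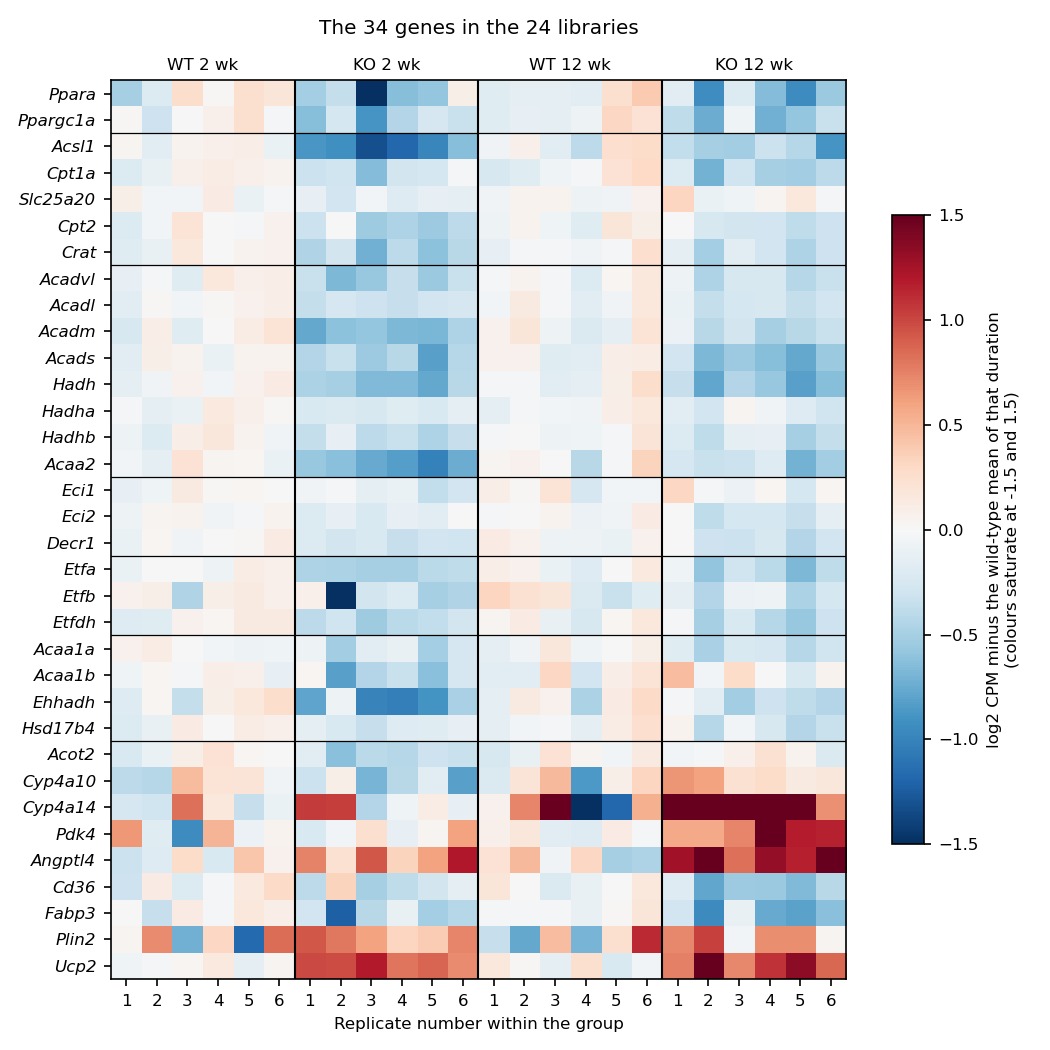
Log2 CPM of each of the 34 genes (rows, ordered by role) in each of the 24 libraries (columns), minus the mean log2 CPM of wild type at the same duration; blue is lower and red is higher, with colours saturated at -1.5 and 1.5. The blue block of mitochondrial genes is seen in all 6 knockout libraries at 2 weeks and is paler in knockout library 1 at 12 weeks.

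Peroxisomal oxidation was lower in 3 of 4 genes at 2 weeks and in 1 at 12 weeks. Ehhadh, the bifunctional hydratase and dehydrogenase and a classical PPAR alpha target, ranged from 493 through 658 to 758 CPM in wild type and from 310 through 352 to 597 CPM in knockout at 2 weeks. Knockout library 2 lay among the wild-type libraries, and the other 5 lay below them all. Ehhadh fell to 62.1% (log2 -0.66 ± 0.15, edgeR adjusted p = 0.0024). At 12 weeks the ranges were 474 through 705 to 803 CPM and 459 through 519 to 645 CPM, with wide overlap, and the difference did not pass (log2 -0.29 ± 0.12, edgeR adjusted p = 0.070, adjusted p = 0.042 with DESeq2).

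The 2 peroxisomal thiolase genes of the mouse differed in pattern. Acaa1a ranged from 140.34 through 145 to 160 CPM in wild type and from 103 through 127 to 140.27 CPM in knockout at 2 weeks, and from 128 through 139 to 159 CPM against 101 through 117 to 124 CPM at 12 weeks. It fell to 83.3% and 80.4% of wild type without overlap (log2 -0.23 ± 0.09 and -0.28 ± 0.07, edgeR adjusted p = 0.046 and 0.0061). Acaa1b, the copy known to respond strongly to PPAR alpha, ranged from 232 through 253 to 270 CPM against 144 through 194 to 258 CPM at 2 weeks. It fell to 76.8% there (log2 -0.35 ± 0.11, edgeR adjusted p = 0.021), with knockout library 1 inside the wild-type range. Later, at 12 weeks, it ranged from 234 through 280 to 352 CPM in wild type and from 242 through 291 to 391 CPM in knockout, with the groups mixed (log2 0.12 ± 0.13, edgeR adjusted p = 0.49). The copies lie 182.6 kb apart on chromosome 9. Of the 50-base windows of Acaa1b transcripts 39.6% also occur in another gene. The share found in Acaa1a was 30.5%, so reads could be split between the copies. Hsd17b4, the multifunctional enzyme for branched chains, did not pass with edgeR at either duration (log2 -0.18 ± 0.07 and -0.20 ± 0.10). DESeq2 called it at 2 weeks (adjusted p = 0.029).

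The genes that rose all lay outside the spiral. Ucp2, an uncoupling protein of the inner mitochondrial membrane that is also made by macrophages, ranged from 60.4 through 66.3 to 73.7 CPM in wild type and from 109 through 126 to 152 CPM in knockout at 2 weeks. The 12-week libraries ranged from 56.5 through 65.5 to 78.1 CPM and from 109 through 130 to 208 CPM. The groups were apart both times, and Ucp2 rose 1.90-fold and 2.15-fold (log2 0.96 ± 0.08 and 1.13 ± 0.15, edgeR adjusted p = 1.1e-07 and 9.8e-05). The macrophage markers given above were high in the same libraries, and their part in this rise was not tested.

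Angptl4, a secreted inhibitor of lipoprotein lipase, rose at both durations. It ranged from 24.1 through 29.0 to 40.4 CPM in wild type and from 35.6 through 48.4 to 69.6 CPM in knockout at 2 weeks, with some overlap, a 1.61-fold rise (log2 0.72 ± 0.17, edgeR adjusted p = 0.0057). At 12 weeks it ranged from 14.3 through 21.6 to 28.4 CPM against 35.96 through 49.5 to 66.7 CPM, without overlap, a 2.44-fold rise (log2 1.31 ± 0.19, edgeR adjusted p = 0.00018). Pdk4, the kinase that shuts pyruvate dehydrogenase and so favours fat over glucose, did not differ detectably at 2 weeks. It ranged from 19.4 through 36.8 to 58.8 CPM in wild type and from 32.0 through 37.2 to 56.9 CPM in knockout (log2 0.04 ± 0.24, edgeR adjusted p = 0.92). At 12 weeks its libraries ranged from 17.1 through 19.8 to 21.9 CPM in wild type and from 28.8 through 37.7 to 60.5 CPM in knockout, without overlap. Pdk4 then stood 2.03-fold higher (log2 1.05 ± 0.17, edgeR adjusted p = 0.00038).

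Cyp4a14 and Cyp4a10, fatty acid omega-hydroxylases and classical PPAR alpha targets, are described outside the rule for per-library values, after their values were seen. Cyp4a14 ranged from 23.6 through 26.5 to 53.1 CPM in wild type and from 22.02 through 30.3 to 61.8 CPM in knockout at 2 weeks, and the difference did not pass (log2 0.34 ± 0.31). At 12 weeks it ranged from 12.3 through 47.1 to 105 CPM against 61.1 through 130 to 215 CPM. It was 2.82-fold higher (log2 1.52 ± 0.50, edgeR adjusted p = 0.033), the largest estimate among the 34 genes and also the one with the largest standard error. Cyp4a10, 22.12 kb away on chromosome 4, did not pass at either duration (log2 -0.37 ± 0.18 and 0.33 ± 0.18, edgeR adjusted p = 0.13 and 0.17). Of its transcript windows 29.8% also occur in another gene, mainly Cyp4a32. Plin2, the coat protein of lipid droplets, scattered from 25.9 to 104 CPM in wild type and from 72.8 to 111 CPM in knockout at 2 weeks and did not pass at either duration (log2 0.50 ± 0.31 and 0.44 ± 0.33).

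**Figure D4:**
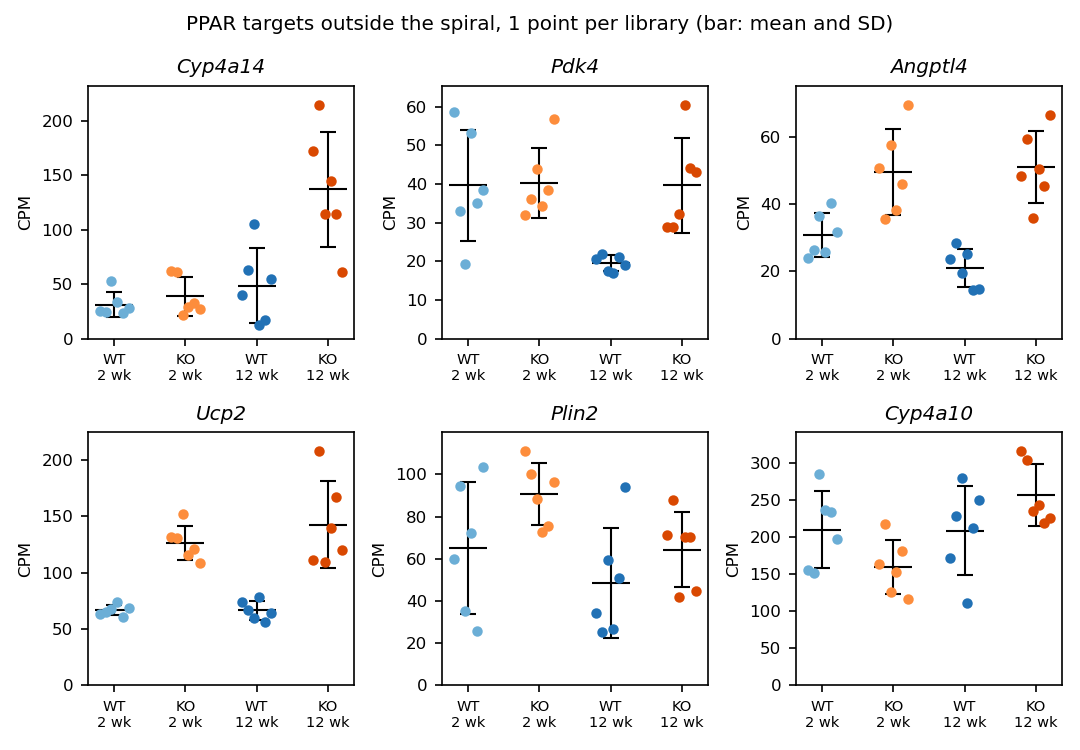
CPM of 6 PPAR target genes in every library (points), with the mean and SD of the 6 libraries of each group as bars and the 4 groups along the horizontal axis. Angptl4, Pdk4 and Ucp2 show no overlap of genotypes at 12 weeks; Plin2 and Cyp4a10 overlap at both durations.

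The promoters of Pdk4 (chr6:5496229-5496528, minus strand) and Ucp2 (chr7:100493108-100493407, plus strand), from RefSeq on GRCm38.p6, are shown as examples from rising genes. Neither window holds a half-site match, so both are in lower case throughout.
Pdk4: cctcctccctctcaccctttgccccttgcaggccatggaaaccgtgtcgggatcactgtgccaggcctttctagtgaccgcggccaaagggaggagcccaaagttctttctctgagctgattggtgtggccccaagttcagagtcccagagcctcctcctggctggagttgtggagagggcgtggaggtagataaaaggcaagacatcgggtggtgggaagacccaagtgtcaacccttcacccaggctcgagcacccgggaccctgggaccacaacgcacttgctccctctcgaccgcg
Ucp2: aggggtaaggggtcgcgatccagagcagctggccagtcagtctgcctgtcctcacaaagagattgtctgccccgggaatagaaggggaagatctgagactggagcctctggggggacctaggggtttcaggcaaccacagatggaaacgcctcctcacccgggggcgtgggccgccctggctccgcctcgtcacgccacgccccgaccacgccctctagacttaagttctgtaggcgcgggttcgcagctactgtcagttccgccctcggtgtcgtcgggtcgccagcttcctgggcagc
Over the 27 genes with a RefSeq promoter in the table used, the half-site AGGTCA occurred on either strand in 5 of 28 promoters (Acadm, Acadvl, Cd36, Cpt1a and Plin2). It occurred in 16.3% of all 32851 promoters of the same length. The direct repeat AGGTCANAGGTCA, in which N is any base and which contains the half-site at both ends, occurred in 0 of the 28 and in 0.0396% of all. Of the 5 genes with a match, Acadm, Acadvl and Cpt1a were lower at both durations and Cd36 at 12 weeks. Plin2 did not pass. The window of the falling genes Hadha and Hadhb holds none. With only 5 matches, whether a match goes with the direction of change cannot be judged. A letter match describes the sequence only.

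Adipocyte transcripts were uneven among the 12-week knockout libraries and are given beside the rises because adipocytes express Angptl4, Pdk4, Plin2 and Cd36. Of the 8 markers 7 could be tested. Of these 5 rose at 12 weeks (median log2 fold change 4.44) and 1 fell at 2 weeks. The summed level of the 8 markers ranged from 32.5 to 78.3 CPM in wild type and from 19.5 to 364 CPM in knockout at 12 weeks. In wild type the sum did not follow Adipoq, the gene of adiponectin. Wild-type library 6 had the highest sum there, 78.3 CPM, with 0.0837 CPM of Adipoq and 0 of the marker Cfd. Adipoq stood at 8.77, 2.81, 0, 18.5, 5.18 and 0 CPM in knockout libraries 1 to 6. Libraries 3 and 6 thus held no Adipoq counts. In these libraries Angptl4 stood at 35.96 and 66.7 CPM, above all wild-type libraries at 12 weeks (14.3 to 28.4 CPM). Pdk4 stood at 32.2 and 43.2 CPM there against 17.1 to 21.9 CPM, and Ucp2 at 109 and 120 CPM against 56.5 to 78.1 CPM. Cyp4a14 stood at 115 and 61.1 CPM, of which the second lay within the wild-type range of 12.3 to 105 CPM.

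**Figure D5:**
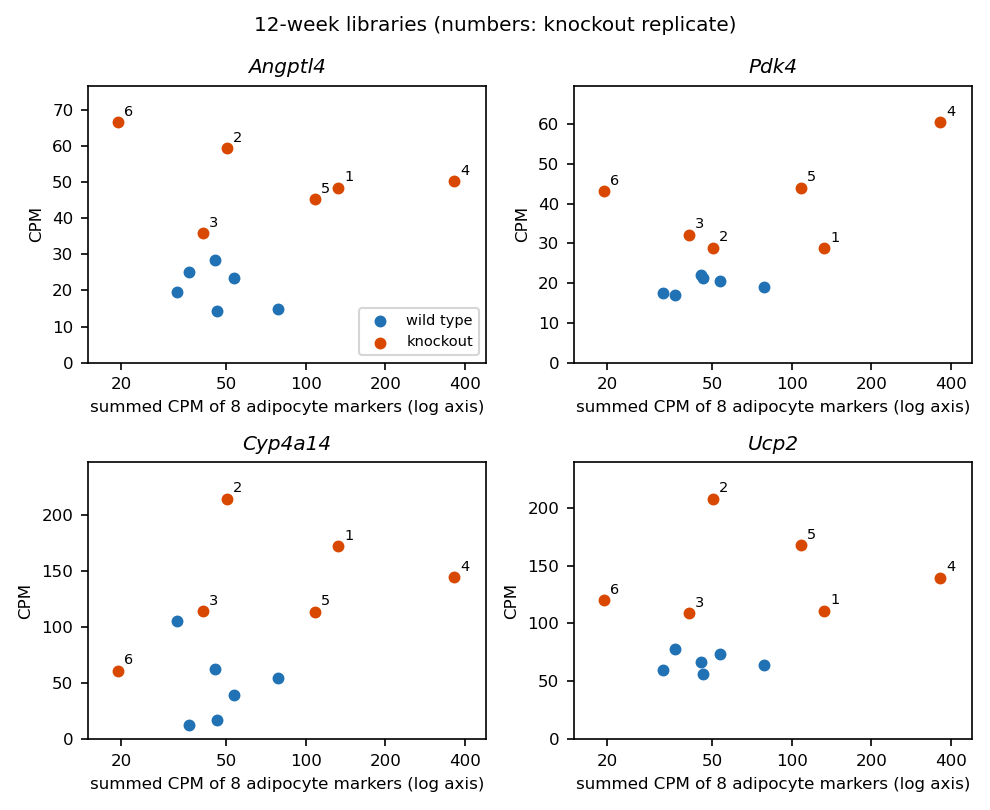
Level of 4 rising genes (vertical axis, CPM) against the summed level of 8 adipocyte markers (horizontal log axis, CPM) in the 12 libraries at 12 weeks; numbers name the knockout replicate. The summed levels of knockout libraries 3 and 6 do not exceed the wild-type range, and their Angptl4, Pdk4 and Ucp2 points lie above all wild-type points. In wild type the sum did not follow Adipoq, and the part of adipocytes in the rises was not tested.

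Libraries with more than 2 CPM of Adipoq were left out in an alternative chosen after seeing the data. At 12 weeks this left 2 knockout and 6 wild-type libraries. Angptl4, Pdk4 and Ucp2 stayed higher (log2 1.33, 0.98 and 0.82, edgeR adjusted p = 0.020, 0.00053 and 0.00064), and Cyp4a14 did not pass (log2 0.88, edgeR adjusted p = 0.55). The falling genes dropped from 20 to 4, namely Acsl1, Acads, Hadh and Cd36, while 726 of the 17286 tested genes fell and 1556 rose, 13.2% in all. The estimate was below 0 in 28 of the 34 genes. At 2 weeks the same step removed wild-type libraries 1 and 4 and left 18 falling and 2 rising genes. Of the 17286 tested genes 2074 then fell and 2816 rose, 28.3% in all.

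Among the remaining PPAR targets 3 were lower. Cd36, a fatty acid uptake receptor, ranged from 375 through 482 to 571 CPM in wild type and from 330 through 371 to 587 CPM in knockout at 2 weeks and did not pass (log2 -0.19 ± 0.13). Knockout library 2, at 587 CPM, was the highest of the 12, and without it Cd36 passed (log2 -0.32, edgeR adjusted p = 0.023). At 12 weeks it ranged from 485 through 564 to 643 CPM against 329 through 386 to 493 CPM, overlapped only through knockout library 1 and wild-type library 3, and fell to 69.7% (log2 -0.49 ± 0.10, edgeR adjusted p = 0.0019). Fabp3, a cytosolic fatty acid carrier, ranged from 45.0 through 59.0 to 64.0 CPM against 24.5 through 42.7 to 52.8 CPM at 2 weeks and from 36.8 through 39.2 to 45.3 CPM against 20.6 through 24.7 to 36.9 CPM at 12 weeks. It fell to 72.3% and 67.8% (log2 -0.44 ± 0.15 and -0.53 ± 0.12, edgeR adjusted p = 0.032 and 0.0035), with overlap both times. Acot2, a mitochondrial acyl-CoA thioesterase, ranged from 18.7 through 22.3 to 25.5 CPM against 14.2 through 17.01 to 19.7 CPM at 2 weeks and fell to 77.0% (log2 -0.34 ± 0.10, edgeR adjusted p = 0.0091). At 12 weeks it ranged from 16.1 through 19.1 to 22.04 CPM against 16.4 through 19.2 to 22.3 CPM, with no visible shift (log2 0.04 ± 0.09). Of the 50-base windows of Acot2 transcripts 27.7% also occur in another gene, mainly Acot1, and of those of Fabp3 37.3%, mainly its pseudogene Fabp3-ps1, so reads of these genes may be split.

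Some of these calls changed when 1 library was left out. Acaa1a and Hadha each lost theirs at 2 weeks without any of 9 libraries. With all libraries both calls lay close to the limit (edgeR adjusted p = 0.046 and 0.042). At 2 weeks 5 of the 34 genes lost their call in at least 1 of the 12 fits that left out a library, and 3 gained one. Acaa1a lost it without any of the wild-type libraries or without knockout library 2, 5 or 6 (log2 -0.25 to -0.18), and Hadha without wild-type library 1, 4, 5 or 6 or knockout library 1, 3, 4, 5 or 6 (log2 -0.19 to -0.15). Fabp3 lost it without wild-type library 1, 3, 5 or 6 or knockout library 3, 5 or 6 (log2 -0.44 to -0.40), and Cpt1a without wild-type library 3, 4, 5 or 6 or knockout library 1, 3, 4 or 5 (log2 -0.27 to -0.21). Acaa1b lost it without knockout library 5 (log2 -0.30). Hsd17b4 passed without wild-type library 1 (log2 -0.21). Other settings also changed calls at 2 weeks. Acaa1a did not pass without mitochondrially encoded genes and Gm42418, nor did Hadha and Fabp3 without a filter. With the replicate block Hadha and Acaa1a did not pass. DESeq2 called Ppara and Hsd17b4, and the fit of all 24 libraries called Ppara.

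At 12 weeks 7 genes lost a call in such a fit and 2 gained one. Cyp4a14 lost it without wild-type library 1, 5 or 6 or knockout library 1, 2, 4 or 5 (log2 1.35 to 1.57, edgeR adjusted p = 0.051 to 0.075). Eci2 lost it without wild-type library 1, 2, 3, 5 or 6 or knockout library 2, 3, 4 or 5 (log2 -0.21 to -0.17). Decr1 lost it without wild-type library 1, 2 or 6 or knockout library 2, 3, 4, 5 or 6 (log2 -0.24 to -0.20), and Cpt2 without wild-type library 2, 5 or 6 or the same 5 knockout libraries (log2 -0.22 to -0.18). Acadm lost it without wild-type library 2 or 6 or knockout library 4 (log2 -0.28 to -0.27), Acadl without wild-type library 2 or 6 (log2 -0.21), and Etfdh without knockout library 5 (log2 -0.26). Ehhadh passed without knockout library 1 or wild-type library 4 (log2 -0.34 and -0.37), and Hsd17b4 without knockout library 1 (log2 -0.26). Without a filter Eci2, Acadl, Decr1, Cpt2 and Cyp4a14 did not pass, and with the replicate block Eci2, Acadl and Cpt2 did not. DESeq2 called Ehhadh, and the fit of all 24 libraries called Hsd17b4.

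Whether the genotype difference itself depended on the duration was asked with an interaction term over all 24 libraries. None of the 34 genes passed with edgeR or DESeq2, against 0.174% of all tested genes with edgeR (0.116% with a difference above 0 and 0.0579% below 0). At an unadjusted p under 0.05 there were 9 genes with edgeR and 10 with DESeq2. The share of all tested genes under that limit is not given here, so no excess can be read from these numbers. Without the libraries rich in Adipoq there were 4 with edgeR, namely Acaa1b, Acadm, Crat and Pdk4. The 9 on all libraries were Acsl1, Slc25a20, Acadm, Acaa2, Acaa1b, Acot2, Cyp4a10, Pdk4 and Angptl4. Each had a difference above 0, meaning a less negative or more positive log2 fold change at 12 weeks. The estimates ran from 0.21 ± 0.09 for Slc25a20 to 1.01 ± 0.31 for Pdk4 (edgeR adjusted p = 0.42 and 0.20). The calls of Pdk4 and Cyp4a14 at 12 weeks alone, and of Ehhadh and Acaa1b at 2 weeks alone, are therefore not shown to differ between durations.

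Across durations within a genotype, more of the 34 genes changed in knockout than in wild type, a contrast that was not tested. In wild type 3 rose and 6 fell from 2 to 12 weeks (15.8% and 14.7% of all genes, 30.4% in all), and in knockout 12 rose and 4 fell (17.7% and 16.1%, 33.8% in all). Ppargc1a, Hadha, Hadhb and Fabp3 fell in both genotypes. Acadvl, Eci2 and Etfa rose in both. In wild type Pdk4 fell to 19.5 ± 2.02 CPM (mean ± SD, n = 6) from 39.7 ± 14.3, and Angptl4 to 20.96 ± 5.74 from 30.8 ± 6.56 (edgeR adjusted p = 0.0013 and 0.035). In knockout neither passed: Pdk4 stood at 40.3 ± 9.11 and 39.6 ± 12.3 CPM and Angptl4 at 49.6 ± 12.7 and 51.1 ± 10.8. The 12-week genotype difference of Pdk4 thus stood beside a lower wild-type level, with a knockout level close to that of both genotypes at 2 weeks. In knockout Cyp4a14 rose 3.52-fold and Cyp4a10 1.61-fold (edgeR adjusted p = 0.0024 and 0.0081), the latter without overlap. No overlap between durations occurred upward in 8.28% and downward in 7.67% of all genes in wild type, and in 7.03% and 7.24% in knockout. Acaa1b rose 1.58-fold, Acaa2 1.37-fold, Ehhadh 1.35-fold, Acsl1 1.31-fold and Acadm 1.21-fold.

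The duration comparisons carry a difference between the files of the 2 durations, so diet duration and processing cannot be told apart. Genes with no exon on the opposite strand had a median log2 difference of 0.00 between 12 and 2 weeks in wild type, while genes with over 70% of their exon bases opposite another gene's exons had a median of 4.46. For genes with over 40 to 70% the median was 0.67. Acadvl, of whose exon bases 42.9% lie opposite exons of Dvl2, rose 1.88-fold in wild type and 2.11-fold in knockout, without overlap. Its duration difference is therefore uncertain, while its genotype differences compare libraries of 1 duration. The opposite-strand share of Acaa1b was 11.4% and that of Fabp3 19.6%, and it was at most 9.91% in the other members. Some duration calls in knockout were lost when 1 library was left out. Acadm lost its call without 2-week library 1 or 12-week library 1 (log2 0.25 and 0.22). Ehhadh lost it without 2-week library 4 or 12-week library 1 (log2 0.38), and Hadha without 12-week library 6 (log2 -0.18). Hadhb lost it without 12-week library 2, 5 or 6 (log2 -0.21 to -0.18), and Eci1 without any of 8 libraries (log2 0.15 to 0.23). In wild type Etfa lost it without any of 8 libraries (log2 0.17 to 0.22) and Angptl4 without any of 6 (log2 -0.54 to -0.46).

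Per kilobase of exon, which allows levels of different genes to be set side by side, Acadm led in wild type at 2 weeks with a mean of 264 CPM per kb, followed by Ehhadh (214), Etfa (199) and Acadl (178). The lowest were Angptl4 (8.70), Ucp2 (9.51), Slc25a20 (9.51) and Acot2 (10.1). The genes that rose in knockout were therefore among those of lowest level in wild type at 2 weeks, with Pdk4 at 11.3 and Cyp4a14 at 12.0 CPM per kb. In knockout at 12 weeks Cyp4a14 reached 52.6 CPM per kb, above Cpt1a at 46.6. All 34 genes together took 0.730% of the counts in the median wild-type library at 2 weeks and 0.609% in knockout, and 0.681% and 0.661% at 12 weeks.

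Genes of the same routes outside the 34 were counted in 4 lists. Of 31 tested genes of other mitochondrial fatty acid steps, 25 fell and 3 rose at 2 weeks (median log2 fold change -0.43), and 23 fell and 1 rose at 12 weeks (median -0.42). Over all tested genes 13.4% fell and 18.2% rose at 2 weeks, and 17.7% and 20.7% at 12 weeks. Without the libraries rich in Adipoq 11 fell at 12 weeks, where 726 of all 17286 tested genes fell and 1556 rose in that fit. The falling genes of smallest adjusted p, which need not have the largest fold, were at 2 weeks Acss1, a mitochondrial acetyl-CoA synthetase (222 ± 17.8 to 126 ± 15.5 CPM, mean ± SD, n = 6 here and in the lists below), Echdc3 (52.3 ± 4.19 to 34.3 ± 2.26 CPM) and Acat1, the thiolase of ketone metabolism (1116 ± 117 to 663 ± 80.4 CPM). At 12 weeks they were Acsm2, a medium-chain acyl-CoA synthetase of high level in this tissue (6434 ± 654 to 3539 ± 548 CPM), Acad10 (131 ± 14.3 to 79.6 ± 13.3) and Mlycd, which degrades malonyl-CoA (67.5 ± 4.57 to 48.2 ± 6.14). The genotypes did not overlap in these genes. The rising genes were acyl-CoA handling genes, namely Acot9, Acsl5 and Acsl4 at 2 weeks (log2 0.44, 0.44 and 0.33) and Acsl5 again at 12 weeks (62.6 ± 6.82 to 94.2 ± 12.0 CPM, log2 0.62).

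Of 30 other peroxisomal genes 22 fell and none rose at 2 weeks (median -0.33), and 21 fell and 2 rose at 12 weeks (median -0.39). Without the libraries rich in Adipoq 11 fell and 0 rose at 12 weeks, against 726 falling and 1556 rising among all 17286 tested genes. Pecr, a peroxisomal reductase, fell to 267 ± 36.6 CPM from 447 ± 45.8 at 2 weeks and to 287 ± 35.0 from 460 ± 53.0 at 12 weeks, without overlap. Next by adjusted p at 2 weeks were the thioesterase Acot12 (log2 -0.63) and the racemase Amacr (log2 -0.59), and at 12 weeks the aldehyde dehydrogenase Aldh3a2 and the branched-chain oxidase Acox3 (log2 -0.60 and -0.68). At 12 weeks Abcd2, a peroxisomal fatty acyl-CoA transporter, rose to 2.68 ± 1.68 CPM from 0.409 ± 0.313, and in knockout libraries 3 and 6, which held no Adipoq, it stood at 0.737 and 1.23 CPM.

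Of 23 tested genes in the list of other PPAR alpha targets, 10 fell and none rose at 2 weeks (median -0.45), against 13.4% and 18.2% of all genes. At 12 weeks 3 fell and 7 rose (median 0.05), against 17.7% and 20.7%. The list includes Cidec and Fabp4, which adipocytes also express. At 12 weeks Cidec stood at 11.3, 3.30, 0.0819, 22.3, 7.30 and 0 CPM in knockout libraries 1 to 6. Fabp4 stood at 81.2, 69.7, 47.8, 209, 120 and 58.7 CPM there. The highest wild-type values were 1.46 and 72.4 CPM. The part of adipocytes in the 7 rises was not tested. Without the libraries rich in Adipoq 1 fell and 1 rose at 12 weeks, against 726 falling and 1556 rising among all 17286 tested genes. Lpl, the lipase that Angptl4 inhibits, fell at both durations, at 12 weeks to 410 ± 55.9 CPM from 823 ± 146 (mean ± SD, n = 6; log2 -0.97, edgeR adjusted p = 4.1e-05), and the mitochondrial coenzyme A carrier Slc25a42 and the ketone enzyme Bdh1 fell at both durations (log2 -0.75 and -0.54, and -0.52 and -0.46). Txnip, a glucose-responsive arrestin, rose at 12 weeks (305 ± 35.0 to 422 ± 66.1 CPM, log2 0.50, edgeR adjusted p = 0.0025). Acot1, the cytosolic sister of Acot2, passed in opposite directions: it fell at 2 weeks (67.9 ± 5.93 to 46.2 ± 5.95 CPM, log2 -0.52) and rose at 12 weeks (71.1 ± 13.7 to 92.5 ± 9.65 CPM, log2 0.41). It was the only gene of the 4 lists to pass the interaction test (difference 0.93 ± 0.15, edgeR adjusted p = 0.0029). Without the libraries rich in Adipoq that difference was 0.89 and did not pass.

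Of 23 tested nuclear receptors and coregulators 10 fell and 13 did not pass at 2 weeks (median -0.23), and 13 fell and 10 did not pass at 12 weeks (median -0.29). None rose in these fits. Without the libraries rich in Adipoq 2 fell at 12 weeks, against 726 of all 17286 tested genes. The genes named next are those of smallest adjusted p. Perm1, a muscle-known regulator downstream of PGC-1 and oestrogen-related receptors, stood at 11.7 ± 1.52 CPM in wild type and 3.83 ± 0.816 in knockout at 2 weeks, and at 4.46 ± 1.30 and 1.57 ± 0.286 at 12 weeks, without overlap (log2 -1.59 and -1.48, edgeR adjusted p = 1.8e-07 and 0.00018). At 2 weeks the oestrogen-related receptor Esrrb and the mitochondrial deacetylase Sirt3 came next (log2 -0.75 and -0.56). At 12 weeks Lpin1, a coactivator of PPAR alpha, and the oestrogen-related receptor Esrra came next (log2 -0.57 and -0.42).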

How the data were processed

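RNA of 24 kidney libraries was sequenced after reverse transcription of mRNA. Whole-number counts by Ensembl identifier were deposited, a file for each library, and fastp, STAR 2.5, HTSeq 0.6.1 and mm10 are named per the submitters' processing notes. No source used here gives the strand setting or annotation release. Symbols and positions came from GENCODE M21 (54495 of 54532 identifiers matched). The 34 members, the other lists and the alternatives were chosen with earlier results of these data known.

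The test was the robust quasi-likelihood F test of edgeR 4.0.16 (R 4.3.3) after TMM scaling and filterByExpr over 24 libraries (minimum count 10, minimum total 15). It is two-sided, and genes passed at a Benjamini-Hochberg adjusted p below 0.05 over 17286 genes. Genotype comparisons used the 12 libraries of a duration; interaction and duration used 24. A standard error is the absolute log2 fold change over the square root of F. Per-library values were given for Ppara, Ppargc1a and up to 3 members per role and direction of smallest adjusted p; from other lists, up to 3 called genes per direction, of which some are not reported here. The tests were also run on simulated data in which far fewer genes changed than passed here. The outcome is not reported here, so no assurance is drawn from it. Alternatives were DESeq2 1.42.0, RLE scaling, scaling without mitochondrially encoded genes and Gm42418, no filter, a minimum mean of 1 CPM, a replicate block, all 24 libraries in 1 fit, each library left out, and, added after seeing the data, the removal of libraries above 2 CPM of Adipoq. The alternatives for the other lists were also added then. The depth of 11327983 to 34055860 counts limits the precision of low genes. Every pair of libraries within a group differed by more than sampling noise (chi-square per gene of at least 6.12).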

Additional observations from a re-analysis of the deposited data

Results flagged for a closer look

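Single libraries stood apart from the other 5 of their group in 8 of the 136 combinations of gene and group, where chance alone marks about 1 in 20 (gap to the nearest library over the whole range, Dixon's test). Knockout library 2 at 2 weeks was high for Cpt2 (139.5 CPM, others 95.4 to 111), Hadhb (171 CPM, others 135 to 148) and Cd36 (587 CPM, others 330 to 423). Wild-type library 6 at 12 weeks was high for Crat (161.1 CPM, others 124 to 133) and Hadhb (175.6 CPM, others 145 to 155). Knockout library 1 at 12 weeks was high for Cpt2 (136.4 CPM, others 105 to 116). Wild-type library 3 at 2 weeks was low for Etfb (29.5 CPM, others 42.2 to 44.3) and high for Cyp4a14 (53.08 CPM, others 23.6 to 33.3).

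The genotype difference of Acot1, an acyl-CoA thioesterase outside the 34 genes, differed between durations by an interaction term of 0.9307 on the log2 scale. It passed in 30 of 30 refits with another setting or without 1 library (0.84 to 1.01), and without the libraries rich in Adipoq it did not (0.89, edgeR adjusted p = 0.19).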

How the results depend on the processing

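Over all alternatives the falling members numbered 16 to 23 at 2 weeks and, outside the removal of libraries above 2 CPM of Adipoq, 15 to 22 at 12 weeks; rising members numbered 2 and 3 to 4. Leaving out 1 library gave 16 to 21 falling and 2 rising members at 2 weeks, 15 to 22 and 3 to 4 at 12 weeks, 5 to 7 falling and 2 to 3 rising for duration in wild type, and 2 to 4 and 9 to 14 in knockout, where 2 came without 12-week library 6. It gave 0 for the interaction throughout. Removal of the Adipoq libraries left 4 falling members at 12 weeks, 11 falling genes each in the other mitochondrial and peroxisomal lists, 1 falling and 1 rising gene among other PPAR targets, 2 falling coregulators and 0 rising peroxisomal genes. That step also left 2 knockout libraries, so fewer samples entered, and 726 of all 17286 tested genes fell and 1556 rose at 12 weeks. At 2 weeks it gave 1 rising peroxisomal gene.

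The rising peroxisomal genes at 12 weeks numbered 1 without a filter, 1 with the replicate block and 1 to 2 without 1 library; 1 coregulator rose in the fit of all 24 libraries and 0 to 2 without 1 library. At 2 weeks 0 to 1 genes rose in the peroxisomal and other PPAR target lists without 1 library. Signs of genes that did not pass turned for Pdk4 at 2 weeks without wild-type library 2 (-0.0073) or 3 (-0.0981) or knockout library 6 (-0.0716), over a range of -0.0981 to 0.2001. At 12 weeks they turned for Acot2 without wild-type library 1 (-0.0046) or knockout library 4 (-0.0082) and Eci1 without knockout library 1 (-0.0333) or wild-type library 4 (-0.0124), over ranges of -0.0082 to 0.0829 and -0.0333 to 0.0818. Without the Adipoq libraries they turned for Acot2 (-0.0429), Eci1 (-0.002), Plin2 (-0.1287) and Slc25a20 (-0.0138). The cause was not tested.

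Residuals of libraries with equal replicate numbers correlated between -0.104 and 0.171. Libraries with unequal numbers were not compared in this way, so these values cannot settle whether the numbers mark pairs. With the replicate block 19 members fell and 2 rose at 2 weeks, 17 fell and 4 rose at 12 weeks, and 0 passed the interaction. Of all 17286 tested genes 2138 fell and 2965 rose at 2 weeks with the block, and 2730 fell and 3220 rose at 12 weeks. For the interaction 0.121% passed.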
